A study of Mus musculus with 24 samples.

Results

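Immediate early and early response genes were followed in mouse liver, and 10 were chosen by symbol: Egr1, Egr2, Egr3, Ier2, Ier3, Ier5, Csrnp1, Myc, Zfp36 and Srf. All 10 were among the 24421 genes of the deposited count table. The samples were medial liver lobes of C57BL/6 mice, with poly(A) RNA sequenced in 24 libraries, and 6 libraries stood in each of 4 groups. Vehicle (0.1% ethanol) or MitoCDNB at 5 mg/kg was injected, and liver was taken 1 h or 4 h later, so that each MitoCDNB group has a vehicle group of its own time. MitoCDNB is chlorodinitrobenzene joined to a lipophilic cation that carries it into mitochondria, where it was designed to deplete glutathione and block thioredoxin reductase. Replicates are separate mice per the labels' protocol, and the labels used here name neither sex nor age.

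Immediate early genes are transcribed within minutes of a stimulus without the need for new protein. Kinases of the ERK, p38 and JNK cascades phosphorylate ELK-type cofactors and CREB. The ELK-type cofactors act with serum response factor (SRF) at serum response elements, whose core is called the CArG box. In liver such genes respond to growth factors, hormones, resection, stress and handling, and their mRNAs are short-lived. The EGR proteins are zinc finger transcription factors. IER2 and CSRNP1 are nuclear proteins, IER3 modulates cell survival and IER5 modulates the heat shock factor HSF1. MYC drives growth genes, and ZFP36 (tristetraprolin) speeds the decay of mRNAs with AU-rich elements.

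Levels are CPM, a gene's count relative to the scaled size of its library, and library totals ran from 25.1 to 37.2 M counts. A filter on low counts left 13833 genes, with 9 of the 10 members; Egr3 was removed by it and was tested alone. A gene is said to have risen or fallen where the adjusted p of edgeR's quasi-likelihood test, over all genes tested, was under 0.05. Hepatocyte markers, with albumin among them, summed to between 35800 and 58700 CPM over all libraries, so the tissue label was met. Transcripts of 3 neuronal genes set replicates 4 to 6 of each 1 h group apart. Snap25, Camk2a and Slc17a7 had 12 to 39, 29 to 55 and 13 to 20 counts in those 6 libraries. They had at most 0, 7 and 3 in the other 18. Of the other brain markers looked at singly, Syt1 (165 to 301 counts there, 109 to 346 elsewhere) and Gfap (3 to 10 there, 0 to 16 elsewhere) did not separate. The rest of the 16 brain markers were not looked at singly, and the origin of these transcripts was not tested. Members' differences at 1 h are also given within replicates 1 to 3 and within replicates 4 to 6. In bulk tissue, fewer cells of a type and less RNA per cell cannot be told apart.

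Promoter windows of the members are shown because SRF, one of them, acts on others of the group through the CArG box. RefSeq windows (GRCm38.p6, the assembly behind mm10) were found for 6 of the 10 members, in 13 entries; Egr1, Egr3, Ier2 and Myc are named only. Each window printed holds the 250 bases before a transcript start, 5' to 3' on the gene's strand, with matches to the searched motifs in capitals. Motifs were the CArG box, the cAMP response element (CRE) TGACGTCA and its core TGACG, the EGR sites GCGGGGGCG and GCGTGGGCG, and the ETS site CCGGAAGT, on both strands. A full CRE contains the core.
Srf, chr17:46556163-46556412, minus strand: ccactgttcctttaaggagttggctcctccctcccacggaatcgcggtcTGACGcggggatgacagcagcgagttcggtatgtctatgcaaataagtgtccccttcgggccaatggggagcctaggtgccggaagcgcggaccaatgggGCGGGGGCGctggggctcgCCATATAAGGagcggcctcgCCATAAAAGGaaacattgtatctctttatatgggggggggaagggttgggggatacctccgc
Egr2, chr10:67537619-67537868, plus strand: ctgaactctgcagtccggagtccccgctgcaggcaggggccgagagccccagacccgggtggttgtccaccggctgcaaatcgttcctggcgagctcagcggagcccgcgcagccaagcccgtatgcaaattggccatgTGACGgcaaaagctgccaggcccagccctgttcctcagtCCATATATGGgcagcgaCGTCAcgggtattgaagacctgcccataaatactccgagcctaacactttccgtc
Csrnp1, chr9:119983780-119984029, minus strand: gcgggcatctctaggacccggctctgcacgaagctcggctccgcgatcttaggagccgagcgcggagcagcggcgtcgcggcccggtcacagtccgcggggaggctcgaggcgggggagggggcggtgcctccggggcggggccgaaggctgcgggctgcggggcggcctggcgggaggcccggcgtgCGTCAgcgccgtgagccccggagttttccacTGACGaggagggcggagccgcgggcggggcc
Ier5, chr1:155099637-155099886, minus strand: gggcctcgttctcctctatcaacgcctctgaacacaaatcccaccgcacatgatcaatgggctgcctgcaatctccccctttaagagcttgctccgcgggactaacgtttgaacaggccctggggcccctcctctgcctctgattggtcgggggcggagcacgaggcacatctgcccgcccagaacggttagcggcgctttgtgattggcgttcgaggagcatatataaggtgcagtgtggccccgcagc
The Srf window holds 2 CArG boxes, CCATATAAGG at bases -82 to -73 and CCATAAAAGG at -62 to -53, with an EGR site at -101 to -93 and a CRE core at -201 to -197 (positions are counted back from the transcript start). Egr2 has the CArG box CCATATATGG at -72 to -63, flanked by 2 CRE cores. Zfp36, in a window not printed because a longer annotated transcript covers it, has CCATAAAAGG at -58 to -49 and the EGR site at -105 to -97. Csrnp1 has CRE cores and no CArG box in these letters, and the Ier5 and Ier3 windows hold none of the motifs. Of 32851 promoter windows of this length, 1.47% hold a CArG box, 2.57% the EGR site GCGGGGGCG and 17.8% a CRE core. These matches describe the letters, and binding was not measured.

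The comparison at 1 h asked which early genes differed soon after MitoCDNB. Ier2 and Csrnp1 rose, each more than 2-fold, and the other 7 tested members did not pass. Ier2 lay between 13.8 and 24.9 CPM in vehicle (median 17.1) and between 31.1 and 61.5 CPM in MitoCDNB (median 52.2). The groups did not overlap: every MitoCDNB mouse was above every vehicle mouse. The mean was 18.5 ± 4.89 CPM in vehicle and 48 ± 13.5 CPM in MitoCDNB (SD, n = 6; log2 fold change 1.38, SE 0.268, 2.6-fold with a 95% interval of 1.77 to 3.82, edgeR adjusted p = 0.00211). Csrnp1 ranged from 6.41 to 17.1 CPM in vehicle (median 7.8) and from 17 to 35.9 CPM in MitoCDNB (median 21). Its groups met only at the edge, where the highest vehicle mouse stood beside the lowest MitoCDNB mouse. Its mean was 10.2 ± 4.64 CPM in vehicle and 24.3 ± 7.65 CPM in MitoCDNB (log2 1.25, SE 0.256, 2.38-fold, interval 1.64 to 3.43, adjusted p = 0.00320). Over all genes tested, 2.7% were called higher at 1 h and 6.57% were called in either direction, beside 2 of 9 members. The median log2 difference was 0.28 over the 9 members and 0.00254 over all genes. Non-overlapping groups were found for 4.74% of all genes and for 1 of the 9 members.

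**Figure D1:**
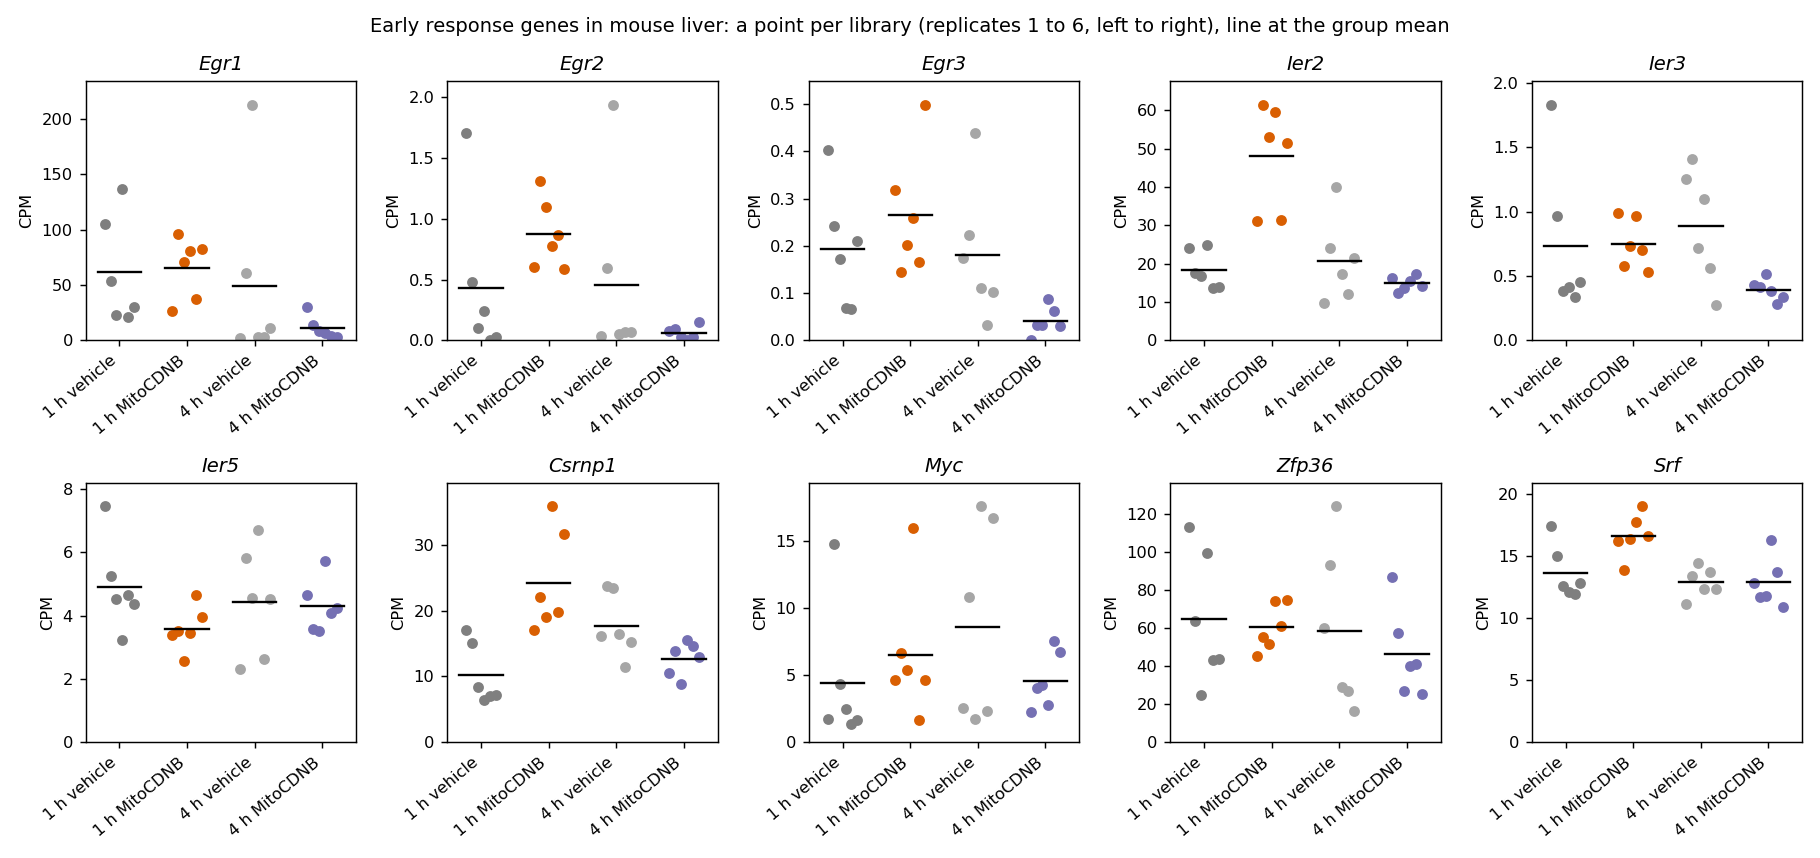
Level of each of the 10 genes (y axis, CPM, linear from 0 with a scale of its own per panel) by group (x axis); each point is 1 of 6 libraries, replicates 1 to 6 from left to right, and each line is a group mean. Ier2 in MitoCDNB at 1 h lies between 31.1 and 61.5 CPM, above all vehicle libraries of that time, while single vehicle libraries carry the highest values of Egr1 and Egr2 (213 and 1.94 CPM, both 4 h replicate 3).

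Within the 1 h sets, Ier2 kept its size and Csrnp1 did not. The log2 difference of Ier2 was 1.32 (adjusted p = 0.117) within replicates 1 to 3, and 1.44 (adjusted p = 0.105) in the other set, each with 3 libraries a group. That of Csrnp1 was 0.52 (adjusted p = 0.486) within replicates 1 to 3 and 2.08 (adjusted p = 4e-04) within replicates 4 to 6. In vehicle, Csrnp1 lay between 8.36 and 17.1 CPM in replicates 1 to 3 and between 6.41 and 7.25 CPM in replicates 4 to 6. So the lowest vehicle levels, and the highest MitoCDNB levels of 35.9 and 31.7 CPM, both stood in replicates 4 to 6. The brain markers summed to 7.76 to 11.7 CPM in replicates 1 to 3 and to 14.5 to 19.9 CPM in replicates 4 to 6. Of the 16 markers, 4 were at 0 in all of the former. At 4 h the sum was 8.11 to 12.4 CPM in vehicle and 6.95 to 14.5 CPM in MitoCDNB, which reaches the lowest of replicates 4 to 6. The part of these markers was not tested beyond the 1 h sets. The sum of the neutrophil markers (7 in the table) was higher in each MitoCDNB library than in any vehicle library at 1 h, although edgeR called 0 of the 4 tested. It was 4.34 to 8.61 CPM in vehicle and 9.99 to 15.3 CPM in MitoCDNB, with none of them at 0 throughout. Cholangiocyte markers summed to 20.6 to 28.6 and 23.9 to 54.7 CPM, with 2 of 6 called higher, and T and NK cell markers to 1.01 to 2.14 and 1.59 to 3.7 CPM, with 1 of 2 tested called higher. Red blood cell markers had a median sum of 579 in vehicle and 1050 CPM in MitoCDNB, with overlapping ranges (469 to 1200 and 619 to 1150) and 0 of 5 called by edgeR. The part of these lists in the results was not tested. Sums of endothelial markers (220 to 267 and 240 to 292 CPM) and Kupffer cell markers (195 to 268 and 213 to 256 CPM) overlapped between the groups.

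Srf, which encodes the factor behind the CArG box, had a small difference at 1 h that did not pass. Its 6 vehicle libraries lay between 11.9 and 17.4 CPM (median 12.7) and the MitoCDNB libraries between 13.9 and 19 CPM (median 16.5), with overlap. The log2 difference was 0.28 (SE 0.102, 95% interval 0.07 to 0.49, adjusted p = 0.110). It was 0.04 within replicates 1 to 3 and 0.53 (adjusted p = 0.0359) within replicates 4 to 6, and limma-voom called it with an adjusted p of 0.0324. Without vehicle replicate 1 the adjusted p of Srf was 0.0237.

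The EGR genes had no call at 1 h, and vehicle mice differed widely among themselves. Egr1 in vehicle had a lowest level of 21.4, a median of 41.7 and a highest level of 137 CPM, and in MitoCDNB it had 26.2, 75.8 and 96 CPM. The MitoCDNB range lay inside the vehicle range. Its log2 difference was 0.09 with a 95% interval from -1.77 to 1.95 (adjusted p = 0.979), which spans 0.293-fold to 3.87-fold. Within replicates 1 to 3 it was 0.0848 and within replicates 4 to 6 0.0973. Egr2, a low gene with 0 to 55 counts a library in vehicle and 17 to 36 in MitoCDNB, ranged from 0 to 1.71 CPM (median 0.172) and from 0.588 to 1.31 CPM (median 0.823). Vehicle replicate 1 alone was above all MitoCDNB libraries, and the other 5 were below all of them. The log2 difference was 0.99 (SE 0.797, interval -0.66 to 2.64, adjusted p = 0.607). It was 0.37 (adjusted p = 0.928) within replicates 1 to 3 and 3.02 (adjusted p = 0.348) within replicates 4 to 6. Without vehicle replicate 1 it was 2.29 (adjusted p = 0.128), and limma-voom with quality weights called Egr2 (adjusted p = 0.0244). Egr2 passed the count filter only through these MitoCDNB libraries, so that call is not independent of the filter. Egr3 had 2 to 13 counts a library in vehicle and 4 to 17 in MitoCDNB, or 0.194 ± 0.125 and 0.265 ± 0.131 CPM. That difference did not pass (two-sided exact permutation test, unadjusted p = 0.366).

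The remaining members at 1 h were the genes of an mRNA decay factor, of MYC and of the smaller IER proteins, and none passed. Zfp36 ran from 25 to 113 CPM in vehicle (median 53.7) and from 45.2 to 74.9 CPM in MitoCDNB (median 58.1), inside the vehicle range, with a log2 difference of -0.10 (interval -1.02 to 0.82, adjusted p = 0.954), or -0.41 within replicates 1 to 3 and 0.18 within replicates 4 to 6. Myc ran from 1.35 to 14.8 CPM in vehicle (median 2.09) and from 1.63 to 16 CPM in MitoCDNB (median 5.03). Its log2 difference was 0.55 (interval -0.86 to 1.96, adjusted p = 0.778), and a single mouse in each group, vehicle replicate 2 and MitoCDNB replicate 4, was far above the others. Without the former the value of Myc was 1.49 (adjusted p = 0.253) and without the latter 0.0547 (adjusted p = 0.983). Its direction differed between the sets, with -0.32 within replicates 1 to 3 and 2.01 (adjusted p = 0.435) within replicates 4 to 6. Ier3 had 0.338 to 1.83 CPM in vehicle and 0.529 to 0.99 CPM in MitoCDNB (log2 0.02, interval -0.76 to 0.79, adjusted p = 0.989), and its direction differed as well, with -0.47 and 0.84 in the sets. Ier5, at 4.92 ± 1.41 and 3.59 ± 0.695 CPM, had a log2 difference of -0.45 (interval -0.91 to 0.00332, adjusted p = 0.288). It was -0.86 within replicates 1 to 3 and -0.02 within replicates 4 to 6.

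**Figure D2:**
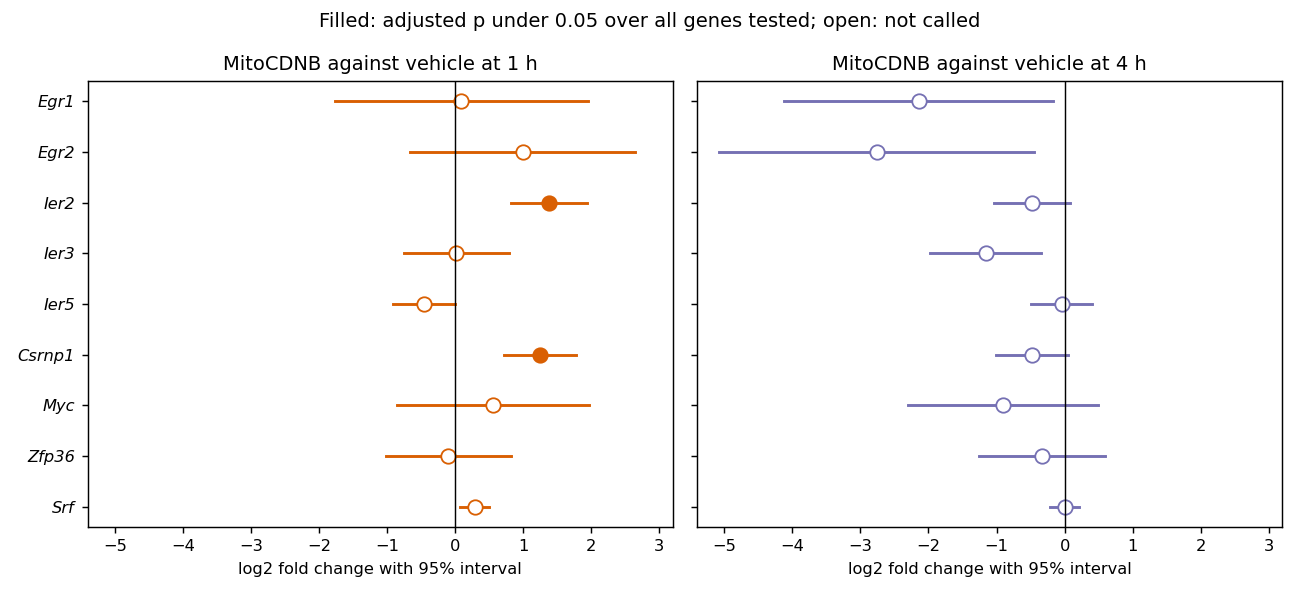
Log2 fold change of MitoCDNB against vehicle (x axis) for the 9 tested genes (y axis) at 1 h (left) and 4 h (right), with 95% intervals from the edgeR fit of all 24 libraries; filled points were called and open points were not. Ier2 (1.38) and Csrnp1 (1.25) are the filled points at 1 h, and none is filled at 4 h, where the intervals of Egr1 and Egr2 are the widest.

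By 4 h, 0 of the 9 members passed edgeR's test (DESeq2 and limma-voom also called 0), beside 0.824% of all genes. An unadjusted p under 0.05 was found for 3 members, Egr1, Egr2 and Ier3, and for 14.3% of all genes. The median log2 difference was -0.48 over the 9 members and -0.0044 over all genes. Ier2 had 9.64 to 40 CPM in vehicle (median 19.5) and 12.5 to 17.3 CPM in MitoCDNB (median 14.8). The MitoCDNB mice thus lay close together inside the vehicle range (log2 -0.48, SE 0.268, interval -1.04 to 0.08, adjusted p = 0.437). Csrnp1 had 11.4 to 23.8 CPM in vehicle (median 16.3) and 8.82 to 15.5 CPM in MitoCDNB (median 13.4), with a log2 difference of -0.48 (interval -1.01 to 0.05, adjusted p = 0.405). For both genes the sign was opposite to that at 1 h.

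The largest differences at 4 h belonged to EGR genes, and vehicle replicate 3 carried much of them. Egr1 in the 6 vehicle mice was 2.26, 61.2, 213, 2.9, 3.2 and 10.9 CPM. In MitoCDNB it lay between 3.45 and 30 CPM (median 7.68), beside a vehicle median of 7.03. The log2 difference was -2.14 (SE 0.949, interval -4.12 to -0.16, adjusted p = 0.3), and it was -0.53 (adjusted p = 0.845) without vehicle replicate 3. For Egr2 the vehicle mice had 1 to 62 counts and the MitoCDNB mice 0 to 5, and 1.94 CPM in vehicle replicate 3 stood beside a vehicle median of 0.0677 CPM. Its log2 difference was -2.76 (SE 1.12, adjusted p = 0.246), or -1.22 (adjusted p = 0.702) without that library. Egr3 had 8 counts in all over the 6 MitoCDNB libraries and 33 over the vehicle libraries (0.0411 ± 0.0305 against 0.181 ± 0.142 CPM; two-sided exact permutation test, unadjusted p = 0.0108, with no correction for other genes). The highest of its MitoCDNB libraries (0.0885 CPM) was above the lowest vehicle library (0.0333 CPM).

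Ier3 at 4 h had 0.275 to 1.41 CPM in vehicle (median 0.908) and 0.282 to 0.517 CPM in MitoCDNB (median 0.4), where 5 of the 6 vehicle mice were above all MitoCDNB mice. The log2 difference was -1.16 (SE 0.394, interval -1.97 to -0.35), which did not pass over all genes (adjusted p = 0.153). Myc was 8.62 ± 7.41 CPM in vehicle and 4.6 ± 2.13 CPM in MitoCDNB (log2 -0.90, adjusted p = 0.598). The vehicle mice fell apart into 3 at 10.8 to 17.6 CPM and 3 at 1.72 to 2.54 CPM. Zfp36, at 58.3 ± 42.9 and 46.3 ± 23 CPM (log2 -0.33, adjusted p = 0.803), Ier5 (log2 -0.04, adjusted p = 0.961) and Srf (log2 0.00412, interval -0.21 to 0.22, adjusted p = 0.992) had the smallest differences. Endothelial markers summed to 236 to 269 CPM in vehicle and 216 to 247 CPM in MitoCDNB at 4 h, and 3 of 8 tested fell. Kupffer cell markers summed to 158 to 494 and 146 to 225 CPM, with 0 of 7 called by edgeR. The part of either was not tested.

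The effect of MitoCDNB differed between the times for Ier2 and Csrnp1, by a test of the difference itself. For Ier2 the 4 h effect minus the 1 h effect was -1.86 on the log2 scale (SE 0.378, adjusted p = 0.00544), and for Csrnp1 it was -1.73 (SE 0.360, adjusted p = 0.00635). Over all genes 1.69% were called lower in this test and 4.07% in either direction, beside 2 of 9 members. Of the members without a call, Egr2 had -3.76 (adjusted p = 0.144), Egr1 -2.23 (adjusted p = 0.412), Myc -1.46 (adjusted p = 0.482) and Ier3 -1.18 (adjusted p = 0.265). Ier5, with 0.41 (adjusted p = 0.562), was the one tested member above 0. Within the 1 h replicates 1 to 3 the difference was -1.80 (adjusted p = 0.0956) for Ier2 and -1.0 (adjusted p = 0.2) for Csrnp1. Within replicates 4 to 6 it was -1.92 (adjusted p = 0.0662) and -2.56 (adjusted p = 3.53e-04).

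Between the times, 4 members fell in the MitoCDNB groups, whereas edgeR called 0 of 9 between the vehicle groups, beside 5.44% of all genes. There Csrnp1 was the 1 member with an unadjusted p under 0.05 (19.6% of all genes) and the 1 called by DESeq2 and limma-voom. The 4 h groups hold library numbers 1 to 12 and the 1 h groups 13 to 24, so time and library order cannot be told apart here. From 1 h to 4 h of MitoCDNB, Egr2 (log2 -3.66, adjusted p = 0.0117), Ier2 (-1.69, adjusted p = 7.83e-05), Csrnp1 (-0.93, adjusted p = 0.00799) and Srf (-0.37, adjusted p = 0.00841) fell. Egr2 passed the count filter only through the 1 h MitoCDNB libraries, with 17 to 36 counts beside 0 to 5 at 4 h. Its call and its lack of overlap are thus not independent of that filter. Egr2 was called with no filter, removed by a filter at a mean of 1 CPM, and not called at an adjusted p under 0.01. Egr1 had -2.57, just short of a call (adjusted p = 0.0507), and Ier3 -0.91 (adjusted p = 0.0906). Within the 1 h replicates 1 to 3 Csrnp1 and Srf lost their calls (adjusted p = 0.085 and 0.151). This comparison called many genes, 13.4% lower and 28.5% in either direction, and 4 of 9 members is to be read beside that. The groups did not overlap for Egr2, Ier2, Ier3 and Csrnp1, as for 13.1% of all genes. Egr3 had 47 counts at 1 h and 8 at 4 h over the 6 MitoCDNB libraries (exact permutation test, unadjusted p = 0.00216). In vehicle, Csrnp1 went from 10.2 ± 4.64 at 1 h to 17.7 ± 4.87 CPM at 4 h (log2 0.80, adjusted p = 0.0705), and within the 1 h replicates 4 to 6 the value was 1.36 (adjusted p = 0.00643). Both MitoCDNB comparisons use these vehicle mice, and for Csrnp1 the 4 h vehicle level is the higher of the vehicle levels.

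Mice of the vehicle groups differed widely in most members: 8 of 9, all but Srf, had an SD above that of at least 78% of all genes in each. In MitoCDNB at 1 h, Egr1, Egr2, Ier2, Ier3, Csrnp1 and Myc had SDs above at least 79.4% of genes. Those of Zfp36, Ier5 and Srf were above 73.6%, 72.2% and 40.2% there. In MitoCDNB at 4 h, 5 of 9 (Ier2, Ier3, Ier5, Csrnp1 and Srf) had SDs above 42.3% to 72.1% of genes. The SD of log2 CPM of Egr1 over the 6 vehicle mice was 1.14 at 1 h and 2.68 at 4 h, and only 97 and 6 of the 13833 tested genes had a larger one. In MitoCDNB it was 0.745 and 1.15. Egr2 had SDs of 1.75 and 1.75 in vehicle and 0.428 and 0.623 in MitoCDNB. Its counts were few, with 0 to 5 a library in MitoCDNB at 4 h. Counting noise and the prior count of 2 thus enter its SDs. Zfp36 showed the same order, with 0.821 and 1.14 in vehicle and 0.29 and 0.673 in MitoCDNB. At each time 8 of the 9 members had a larger SD in vehicle than in MitoCDNB, with Ier2 the exception at 1 h and Srf at 4 h. Over all tested genes 51.3% at 1 h and 60.8% at 4 h had the larger SD in vehicle, and the difference in spread was not tested. Srf was the steadiest member in both vehicle groups and in MitoCDNB at 1 h. In MitoCDNB at 4 h Ier2 had a smaller SD (0.175, beside 0.208 for Srf). The SDs of Srf, from 0.135 to 0.214, were near the medians of all genes (0.179 to 0.226). In the fit, the SE of a log2 difference was between 0.797 and 1.38 for Egr1 and Egr2, and between 0.102 and 0.145 for Srf.

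**Figure D3:**
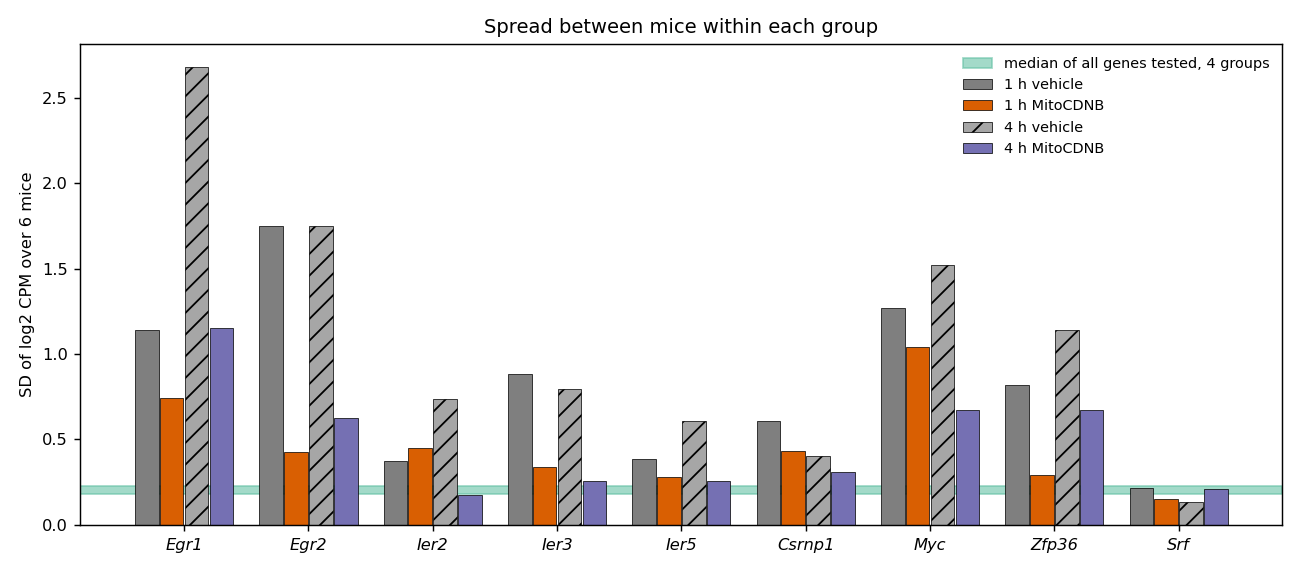
Standard deviation of log2 CPM over the 6 mice of each group (y axis) for the 9 tested genes (x axis), with a bar per group and a band for the range of the 4 group medians over all genes tested. The bars of Egr1 (2.68 in 4 h vehicle), Egr2 and Myc stand far above the band at 0.179 to 0.226, and those of Srf lie at its level.

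The high libraries were often the same mice. In vehicle at 1 h, replicate 1 was the highest of its group for 6 of the 9 members, and at 4 h vehicle replicate 3 was the highest for 5 of 9. Fos, the AP-1 gene, followed them, at 48.8 CPM in the former and 107 CPM in the latter, whereas the 6 MitoCDNB mice of 1 h lay between 5.73 and 8.2 CPM. Junb, another AP-1 gene, was also highest in vehicle replicate 1 at 1 h (131 CPM), but at 4 h it was higher in vehicle replicate 2 (144 CPM) than in replicate 3 (119 CPM). After the group means were removed, Egr1 varied over the 24 libraries with Ier2 (Pearson's r = 0.815, Spearman's rho = 0.757), Egr2 (r = 0.752, rho = 0.704) and Zfp36 (r = 0.732, rho = 0.724). Without the 2 libraries farthest from the group mean of Egr1 these r were 0.678, 0.613 and 0.788. Myc did not follow them (r = -0.105 with Egr1 and -0.313 with Zfp36), nor did Ier3 follow Ier2 (r = -0.000836). These values describe the libraries, which share depth and scaling, and all 36 pairs of members were computed.

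**Figure D4:**
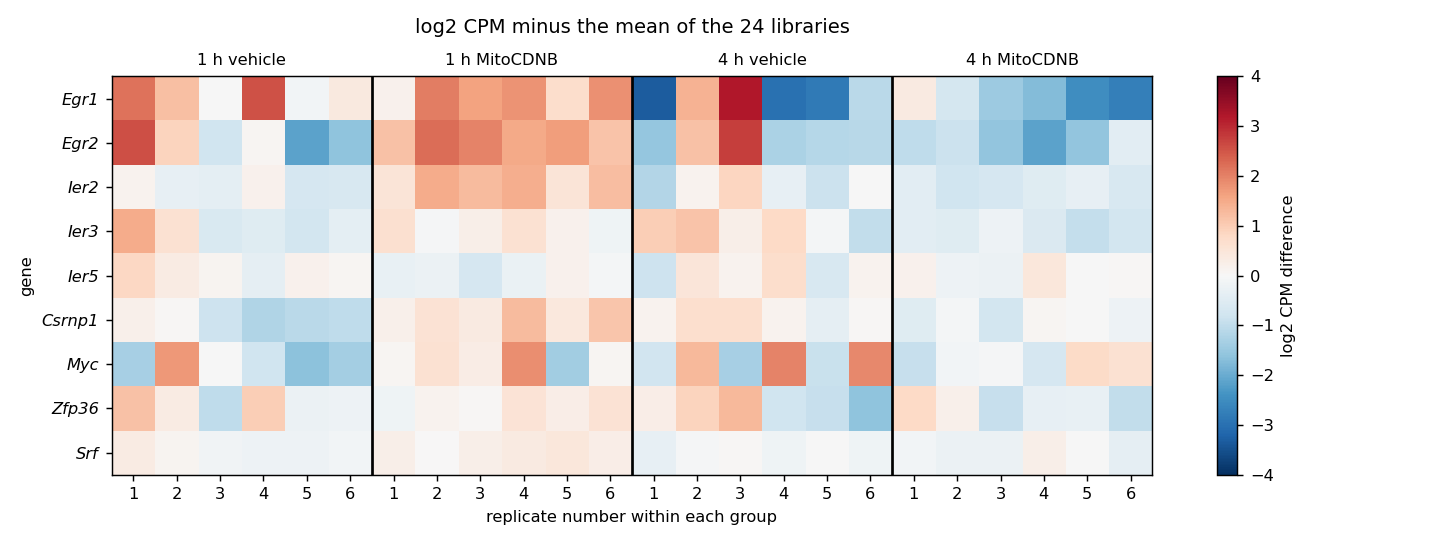
Log2 CPM minus the mean of the 24 libraries (colour, red above and blue below) for the 9 tested genes (rows) in each library (columns, replicates 1 to 6 in each group). Egr1 and Egr2 are red throughout MitoCDNB at 1 h, mixed in both vehicle groups, with 4 h vehicle replicate 3 the reddest, and mostly blue in MitoCDNB at 4 h.

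Genes averaging 1 CPM or more, with the members, predicted genes and clones left out, numbered 11309. Those with the most similar log2 CPM over the 24 libraries mostly differed from member to member, with Fos shared by Egr1, Egr2 and Zfp36. The r given (Pearson's) describe libraries that share depth and scaling. Closest to Egr1 were Elavl1 (r = 0.849), Fos (0.819) and Jun (0.781). Egr2 was near to Fosb (0.91) and Fos (0.874), and Zfp36 to Junb (0.863), Fos (0.83) and Med13l (0.744). For Egr2, whose counts were few, Spearman's rho was lower, at 0.687 with Fosb and 0.752 with Fos. The nearest genes to Ier2 were Nr4a1 (0.889), Dusp6 (0.882) and Atf3 (0.881), for which r was 0.605, 0.685 and 0.581 once the group means were removed. Csrnp1 had Trib1 (0.81), Plk3 (0.805) and Gadd45g (0.803), and Srf had Naif1 (0.857), Tob1 (0.837) and Dnajb4 (0.809). For Ier3 they were Tnfaip3 (0.758), Usp47 (0.743) and Nfkbiz (0.742), and for Ier5 Il10ra (0.805), Nfkbie (0.805) and Dmpk (0.80). Without the 2 libraries farthest from the median of Ier3, its r were 0.609, 0.697 and 0.574. Myc had the weakest neighbours, Tchh (0.714), Foxq1 (0.707) and Prss36 (0.667).

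Per kilobase of exon, Zfp36, Ier2 and Egr1 were the most abundant members in vehicle at 1 h, at medians of 15.5, 11.3 and 9.3 CPM per kb. Their ranges (7.2 to 32.6, 9.07 to 16.4 and 4.77 to 30.6) overlapped, so these neighbours did not separate. Srf (4.39), Csrnp1 (2.25), Ier5 (1.4), Myc (0.771), Ier3 (0.383), Egr2 (0.0508) and Egr3 (0.0436) followed by median CPM per kb. In MitoCDNB at 1 h, Ier2 came first by median, at 34.3 CPM per kb (range 20.4 to 40.4), ahead of Egr1 (16.9) and Zfp36 (16.7). The ranges of Egr1 (5.84 to 21.4) and Zfp36 (13 to 21.6) overlapped that of Ier2 at its lower end. At 4 h Egr1 had medians of 1.57 in vehicle and 1.71 CPM per kb in MitoCDNB, below Zfp36, Ier2, Srf and Csrnp1 in both, with a vehicle range of 0.504 to 47.5 that covers their vehicle ranges.

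Close relatives of the members moved in both directions at 1 h. Of 7 tested relatives, 1 rose and 2 fell, beside 6.57% of all genes called in either direction. The median log2 of the 7 was -0.35, beside 0.00254 for all genes. Zfp36l1, a paralog of Zfp36 that also binds AU-rich mRNAs, rose, with 93.5 ± 40.7 CPM in vehicle and 182 ± 32.6 in MitoCDNB (log2 0.96, adjusted p = 0.0136). Its log2 difference was 0.51 within replicates 1 to 3 and 1.51 (adjusted p = 0.00828) within replicates 4 to 6. Mycn, of the MYC family, fell, with 0.621 ± 0.328 and 0.159 ± 0.114 CPM (log2 -1.98, adjusted p = 0.0154), a call that only replicates 4 to 6 gave on their own (log2 -3.31, beside -0.54 within replicates 1 to 3). Ier5l, a paralog of Ier5, fell with 0.718 ± 0.339 and 0.263 ± 0.173 CPM (log2 -1.40, adjusted p = 0.0345), and it was called in 6 of 12 single omissions, with an adjusted p of 0.101 without vehicle replicate 6. At 4 h edgeR, DESeq2 and limma-voom called 0 of the 7. Ier5l was the 1 with an unadjusted p under 0.05 (log2 1.08, adjusted p = 0.132), beside 14.3% of all genes.

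Among partners of the members, 2 of 17 nuclear partners and 2 of 24 upstream kinase pathway genes were called at 1 h, beside 6.57% of all genes. Of 17 tested EGR corepressors, SRF cofactors and MAX network genes, Mnt, a MAX partner that opposes MYC, rose at 1 h, with 5.88 ± 0.818 CPM in vehicle and 11.4 ± 1.96 in MitoCDNB (log2 0.95, adjusted p = 3.7e-06). Max, the shared partner of MYC and MNT, fell by 0.31 on the log2 scale (16.6 ± 1.32 and 13.4 ± 0.971 CPM, adjusted p = 0.0099), and the other 15 did not pass. The call of Max was lost within each 1 h set (log2 -0.28 and -0.35, adjusted p = 0.285 and 0.15). At 4 h Nab1, a corepressor of EGR proteins, was the 1 gene of the 17 called by edgeR (DESeq2 called 2 and limma-voom 1), and it fell by 0.36 on the log2 scale (36.4 ± 3.35 and 28.3 ± 1.07 CPM, adjusted p = 0.00683). Among 24 genes of the upstream kinase cascades, Mapkapk2, the p38-activated kinase that acts on ZFP36, rose at 1 h, with 51.5 ± 9.14 CPM in vehicle and 90.6 ± 13.1 in MitoCDNB (log2 0.81, adjusted p = 6.6e-05). Creb1, the cAMP response factor, fell by 0.38 on the log2 scale (13 ± 1.34 and 10 ± 1.09 CPM, adjusted p = 0.00449), with no call within either 1 h set (log2 -0.37 and -0.38, adjusted p = 0.134 and 0.0731). Nras, a small GTPase upstream of ERK, fell at 4 h (log2 -0.26, adjusted p = 0.0142), the 1 gene of the 24 called by edgeR. Over all genes edgeR called 0.824% at 4 h.

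Genes that the members are known to act on showed a rise of actins at 1 h. Of 15 tested actin and contractile targets of SRF, 3 rose and 0 fell, beside 2.7% of all genes called higher (median log2 0.18, beside 0.00254 for all genes). Actg1, cytoplasmic gamma actin, had 72.1 ± 8.86 CPM in vehicle and 263 ± 49.5 in MitoCDNB (log2 1.87, SE 0.149, adjusted p = 1.06e-08). Actb, beta actin, had 199 ± 16.3 and 348 ± 51.8 CPM (log2 0.81, adjusted p = 7.56e-05), and both were called within each 1 h set as well. The tropomyosin gene Tpm4 rose as well (log2 0.39, adjusted p = 0.029), with calls in 7 of 12 single omissions and an adjusted p of 0.0899 without MitoCDNB replicate 1. At 4 h edgeR, DESeq2 and limma-voom called 0 of the 15. An unadjusted p under 0.05 in edgeR was found for 0 of them, beside 14.3% of all genes. Actb had the smallest p of the 15 (log2 0.22, adjusted p = 0.428).

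Over all genes edgeR called 6.57% at 1 h and 0.824% at 4 h. MYC targets of growth and ribosome making had 0 of 24 called at each time by edgeR, DESeq2 and limma-voom. An unadjusted p under 0.05 was found for 1 of these targets at each time. Their median log2 was -0.0366 at 1 h and -0.00284 at 4 h. The smallest p belonged to Odc1 at 1 h (log2 0.28, adjusted p = 0.154) and to Cdk4 at 4 h (log2 -0.15, adjusted p = 0.222). Of 14 tested mRNAs bound by ZFP36 or genes of mRNA decay, 2 rose and 2 fell at 1 h, beside 6.57% of all genes. Plaur, the urokinase receptor gene, rose, with 0.485 ± 0.192 CPM in vehicle and 1.81 ± 0.535 in MitoCDNB (log2 1.88, adjusted p = 7.39e-05). Hnrnpd, which encodes an AU-rich element binding protein, rose (log2 0.31, adjusted p = 0.0494) but kept its call in 2 of 12 single omissions, with an adjusted p of 0.143 without MitoCDNB replicate 5. The decapping enzyme gene Dcp2 fell (log2 -0.29, adjusted p = 0.0125; -0.42 within replicates 1 to 3 and -0.17 within replicates 4 to 6), and the chemokine gene Cxcl1 fell with 37.7 ± 71.8 and 1.81 ± 0.566 CPM (log2 -4.37, adjusted p = 0.0384). The value of Cxcl1 was -2.29 (adjusted p = 0.253) without vehicle replicate 1, and it was called in 4 of 12 single omissions. It was -5.57 (adjusted p = 0.122) within replicates 1 to 3 and 0.13 (adjusted p = 0.989) within replicates 4 to 6. At 4 h edgeR, DESeq2 and limma-voom called 0 of the 14. An unadjusted p under 0.05 in edgeR was found for 4 of them, beside 14.3% of all genes. Ccl2 had the smallest p of the 14 (log2 -2.73, adjusted p = 0.221).

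Other immediate early genes give the setting of the members. Like the other lists, this one was chosen with earlier results of these data known. Of 36 tested, 21 rose and 0 fell at 1 h, beside 2.7% of all genes called higher. The median log2 of the 36 was 1.25, beside 0.00254 for all genes. Atf3, Jund, Dusp5 and Nr4a2 had the smallest p among the 36 (log2 4.19, 1.39, 2.91 and 2.23). Beside the 21 of 36, 2 of the 9 members rose. At 4 h edgeR called 0 of the 36, DESeq2 called 4 and limma-voom 1. An unadjusted p under 0.05 in edgeR was found for 9 of them, beside 14.3% of all genes. Klf2 had the smallest p of the 36 (log2 -0.91, adjusted p = 0.0692). It passed with vehicle replicate 1 and MitoCDNB replicate 2 both left out (log2 -1.09, adjusted p = 0.0343). Klf2 was called in 2 of 12 single omissions, with an adjusted p of 0.161 without vehicle replicate 2. The test of the difference between the times called 16 of these 36 lower and 0 higher, beside 1.69% of all genes called lower.

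The members lie on separate loci of GRCm38. Ier2 covers chromosome 8 from 84661331 to 84662852 and Csrnp1 chromosome 9 from 119971163 to 119984658, both on the minus strand. Exons of Csrnp1 share 224 bases with an antisense transcript and those of Zfp36 share 125 with another, and neither transcript is a row of the table. The strand setting of the counting is not known, so the values of these members can include antisense reads. Exons of the other members share no base with another annotated gene.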

How the data were processed

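Liver RNA was sequenced in 24 libraries, with 6 mice per group per the labels' protocols. The authors deposited raw counts per gene symbol; the submitters' processing notes name HISAT2, Trim Galore, DESeq2 and CASAVA 1.8.4 and build mm10. The counting tool and annotation count among items not given in the sources used here. The kit, NEBNext Ultra RNA per the labels, does not mark strand. Genes were kept by filterByExpr (minimum count 10, minimum total 15), which left 13833 genes. Counts were scaled by TMM, and the 4 groups were fitted together with the robust quasi-likelihood test of edgeR 4.0.16 (R 4.3.3; Benjamini-Hochberg, called under 0.05). Intervals come from the log2 fold change and its SE. DESeq2 1.42.0 and limma 3.58.1 (voom) were alternatives. Log2 CPM for spread and likeness used a prior count of 2. Egr3, removed by the filter, had an exact permutation test.

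Members, lists and tests were chosen with earlier results of these data known. All 10 members are named. Each list gives up to 4 called genes with the smallest p per treatment comparison, or 1 where none was called, and each member its 3 most similar genes, of which 1 is not reported here. On simulated data for the 1 h comparison the fit over 13833 genes recovered 64.2% of the 1.5-fold changes, 86.6% at 2-fold and 93.9% at 4-fold. For the difference between the times these shares were 35.8%, 68.7% and 89.4%. The changed genes were drawn at random from those tested. The shares thus do not describe members with a wide spread, such as Egr1, Egr2 and Myc (SE 0.893, 0.797 and 0.678 at 1 h). Exon lengths and positions are from GENCODE M21 (GRCm38) and promoters from RefSeq. Libraries of one group differed by more than counting noise in all 60 pairs.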

Additional observations from a re-analysis of the deposited data

Results flagged for a closer look

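The effect of MitoCDNB differed between the times for 2 members by a test of that difference. The value for Ier2, the 4 h effect minus the 1 h effect, was -1.86 on the log2 scale. For Csrnp1 it was -1.73. None of the 40 groups of 6 values (10 members in 4 groups, as log2 of CPM plus 0.1) held a single library apart from the rest by Dixon's criterion. That criterion can miss a library where another is also high, as for Egr1 in 4 h vehicle (213 and 61.2 CPM). It thus does not show that no single library carried a difference.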

How the results depend on the processing

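Members called at 1 h numbered 2 in the fit reported. That count stayed at 2 with other size factors, other filters, DESeq2, no robust estimation, the 1 h groups alone, without Mup genes and at an adjusted p under 0.01. It was 4 with limma-voom, 0 within replicates 1 to 3 and 2 within replicates 4 to 6 (Csrnp1 and Srf), and 2 to 3 over single omissions (3 without vehicle replicate 1, with Srf added). At 4 h each fit and each single omission gave a count of 0.

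For the difference between the times the members called went from 2 to 0 within the 1 h replicates 1 to 3 and to 1 within replicates 4 to 6, and over single omissions they ran from 2 to 4 (4 without 1 h vehicle replicate 1). With the replicate block 1 member was called, Ier2; the numbers mark no shared litter or day in the labels, same-numbered libraries had deviations that correlated at -0.0666 to 0.212 at 1 h and -0.213 to 0.265 at 4 h, and 2 of 6 libraries at each time correlated best with their own number. Between the vehicle groups the count of 0 became 1 with limma-voom, DESeq2 and within the 1 h replicates 4 to 6, and 0 to 1 over omissions. Between the MitoCDNB groups the 4 became 2 within the 1 h replicates 1 to 3 and 6 with the replicate block or the compared groups alone, with 4 to 5 over omissions. With a filter at a mean of 1 CPM that count stayed at 4, with Egr1 called and Egr2 removed. At an adjusted p under 0.01 it was 3, without Egr2.

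Of the members' values without a call, the following changed sign, and the cause was not tested. At 1 h Ier3 was -0.47 and Myc -0.32 within replicates 1 to 3, and Zfp36 was 0.18 within replicates 4 to 6, 0.0667 with the replicate block and 0.0933 with limma-voom. At 4 h Srf was -0.00946 without vehicle replicate 1 and MitoCDNB replicate 2, -0.00316 with the replicate block and -0.0444 with limma-voom, and Ier5 was 0.0184 with the replicate block. For the difference between the times Zfp36 was 0.0736 within replicates 1 to 3 and Ier5 -0.0208 within replicates 4 to 6. Between the vehicle groups Egr2 was -0.73 and Ier3 -0.27 within replicates 1 to 3, Ier5 was 0.12 and Srf 0.066 within replicates 4 to 6, Egr2 was -0.0319 with the replicate block and Zfp36 0.0800 with limma-voom. Over single omissions at 1 h Egr1 ran from -0.0859 to 0.49, Ier3 from -0.13 to 0.53 and Zfp36 from -0.27 to 0.14. At 4 h Ier5 ran from -0.17 to 0.12, Srf from -0.076 to 0.0518 and Zfp36 from -0.61 to 0.0368. The difference between the times for Zfp36 ran from -0.51 to 0.14. Between the vehicle groups Egr1 ran from -1.95 to 0.0668, Egr2 from -1.45 to 1.39, Ier2 from -0.13 to 0.31, Ier5 from -0.31 to 0.00622 and Zfp36 from -0.52 to 0.0856, and between the MitoCDNB groups Myc ran from -0.69 to 0.00949.

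Counts over all genes at 1 h were 909, 244 within replicates 1 to 3 and 256 within replicates 4 to 6. At 4 h 114 became 18 with the compared groups alone, 224 with limma-voom, 337 with DESeq2, 247 without vehicle replicate 1 and MitoCDNB replicate 2, and 63 to 412 over omissions. For the difference between the times 563 became 913 with limma-voom, 150 within replicates 1 to 3 and 275 within replicates 4 to 6. Between the vehicle groups 753 became 177 and 309 within these sets, 415 with those groups alone and 480 to 749 over omissions, and between the MitoCDNB groups 3940 became 2395 within replicates 1 to 3. At an adjusted p under 0.01 the 5 counts were 473, 19, 231, 255 and 2439. Depth limits Egr2, Egr3 and Ier3, which had few counts per library.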
